A study of Homo sapiens with 24 samples.

Results

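ABBV-075 (mivebresib) blocks both bromodomains of the BET proteins, and the genes described here are those that moved the same way with it in 4 unrelated tumour lines. The members were found by setting 8 ABBV-075 libraries against 8 DMSO libraries, out of 24 libraries in the series, and reading the change within each line. A gene was tested where it had at least 1 FPKM (a level corrected for transcript length and library size) in at least 2 of the 4 libraries of every line, which left 10039 of 30373 rows. A core gene had an adjusted p under 0.05 and one and the same direction in each of the 4 lines (limma, Benjamini-Hochberg over all genes tested). There were 1198 core genes, which is 11.9% of the genes tested.

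The tested cells had 24 h of ABBV-075 at 100 nM and the controls had 24 h of DMSO, the vehicle. SKM-1, MV-4-11 and Kasumi-1 derive from acute myeloid leukaemia. MV-4-11 is known for an MLL fusion and Kasumi-1 for the fusion of RUNX1 with RUNX1T1. NCI-H1299 derives from non-small cell lung cancer and is known to lack p53. Each line and treatment has 2 libraries, each line stands for 1 tumour, and nothing in the labels tells whether a pair comes from separate cultures. The p-values of single lines and of differences between lines therefore cover the spread between these libraries, which may be technical. In the fit over all lines with the line as a block, the p-values and SE also take in how far the change differs between lines. That fit counts libraries, not lines, as its units. Further libraries had ABBV-744, an inhibitor selective for the second bromodomain, at 200 nM.

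BET proteins hold on to acetylated histones at active promoters and enhancers and help to recruit P-TEFb, the kinase that releases paused RNA polymerase II into elongation. P-TEFb is kept in reserve by the protein HEXIM1 and the 7SK RNA. Inhibitors of the bromodomains are best known in leukaemia for lowering MYC and its growth programme and for raising HEXIM1.

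Markers told the leukaemia libraries from the lung libraries as labelled; the 3 leukaemia lines were not told apart from each other by them. The summed level of 15 myeloid markers was 2413 to 6598 FPKM with ABBV-075 and 2875 to 6665 FPKM with DMSO in the leukaemia libraries, against 7.55 to 9.04 FPKM with ABBV-075 and 8.71 to 12.5 FPKM with DMSO in NCI-H1299. The 16 epithelial and mesenchymal markers summed to 4086 and 4288 FPKM with ABBV-075 and to 3400 and 3406 FPKM with DMSO in NCI-H1299, and to at most 393 FPKM in any leukaemia library. Depth is unknown, because only FPKM values were used. The SKM-1 DMSO pair stood furthest apart: the SD of its log2 difference over genes tested was 0.661, followed by 0.489 for Kasumi-1 with ABBV-075, while the other pairs lay between 0.163 and 0.297. Mitochondrial transcripts took 22.3% of the FPKM sum in SKM-1 DMSO replicate 2 and 9.13% in replicate 1. They took 14.6% and 16.3% in Kasumi-1 with ABBV-075 and 12.4% and 13.2% with DMSO. The part of these library differences in the results was not tested, and the main counts are given with and without the SKM-1 library.

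FPKM values are scaled to the library, which holds the middle of the changes near 0, so how evenly the calls split into higher and lower says nothing of a balance. Over the 4 lines, with the line as a block, 2779 genes rose (27.7% of those tested) and 2864 fell (28.5%) (limma, adjusted p under 0.05), and 4631 of these had the same sign in every line. The core held 611 genes that were higher (6.09%) and 587 that were lower (5.85%). The treated and DMSO libraries of all 1198 core genes did not overlap in any line, which the calls largely require, beside 29.8% of all tested genes. The changes were seldom large everywhere: 83 core genes were at least 2-fold higher in each line and 139 were at least 2-fold lower, on the log2(FPKM + 1) scale, which understates changes of genes with low levels. The core depends on which libraries are counted. Without SKM-1 DMSO replicate 2 it held 853 higher and 933 lower genes, and 1182 of the 1198 were kept. Without MV-4-11 ABBV-075 replicate 2 it held 392 higher and 375 lower, without MV-4-11 DMSO replicate 2 it held 397 and 391, and without MV-4-11 ABBV-075 replicate 1 it held 381 lower. Without 1 of the NCI-H1299 libraries it held 391 to 401 higher genes, and 383 lower ones without NCI-H1299 DMSO replicate 1.

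**Figure D1:**
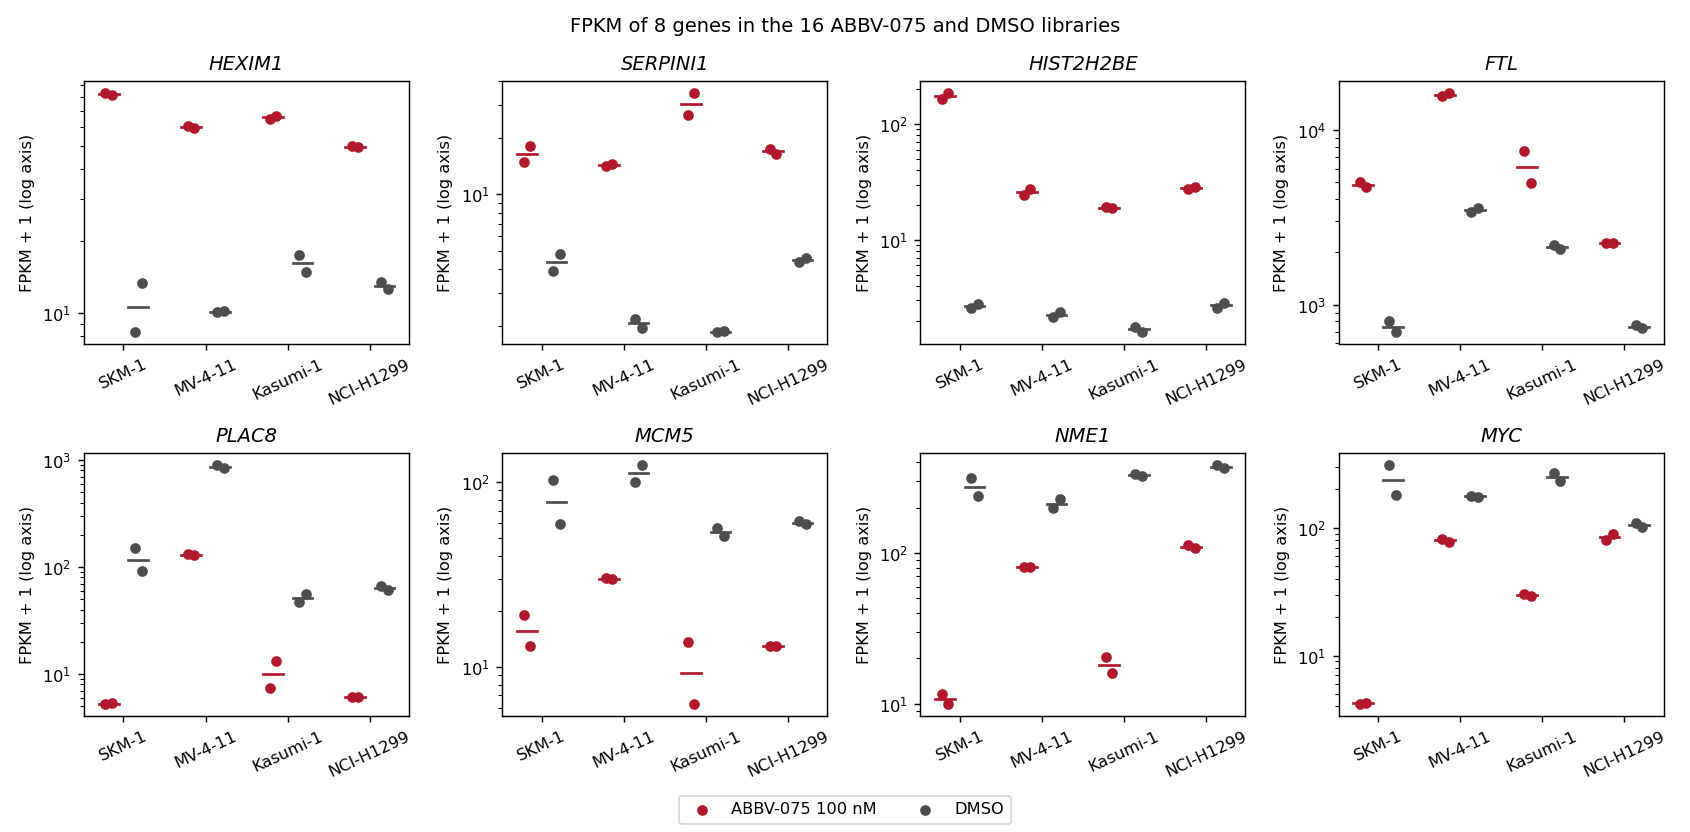
FPKM + 1 (log axis) of 8 genes in the 16 libraries, with ABBV-075 in red left of DMSO in grey in each line; points are libraries and bars the mean on the log scale. HEXIM1, SERPINI1, HIST2H2BE and FTL are higher and PLAC8, MCM5 and NME1 lower in every treated library than in the DMSO libraries of its line, while MYC in NCI-H1299 is 78.8 and 87.6 FPKM with ABBV-075 and 107 and 100 FPKM with DMSO.

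Among regulators of elongation, HEXIM1 was higher in leukaemia and lung lines alike. It had 82.5 and 80.5 FPKM with ABBV-075 against 7.33 and 12.4 FPKM with DMSO in SKM-1. In MV-4-11 it had 59.98 and 58.4 FPKM with ABBV-075 against 9.10 and 9.21 FPKM with DMSO. In Kasumi-1 the values were 64.2 and 65.9 FPKM with ABBV-075 against 16.5 and 13.9 FPKM with DMSO, and in NCI-H1299 they were 48.9 and 48.6 FPKM with ABBV-075 against 12.4 and 11.6 FPKM with DMSO. No treated library of any line reached down to a DMSO library of any line. The log2 difference was 2.37 ± 0.14 over the 4 lines (SE, block fit, 2 libraries per line and treatment), with 2.97 in SKM-1, 2.57 in MV-4-11, 2.03 in Kasumi-1 and 1.93 in NCI-H1299. Its promoter is shown because the gene is the best known marker of these inhibitors. These are the 200 bases before the start of HEXIM1 in RefSeq (GRCh38.p14, chr17:45148275-45148474, plus strand), 5′ to 3′, with capitals for motifs on either strand. The TATA box was searched as TATAAA, the box named CCAAT by those letters, the GC box as GGGCGG and the E2F motif as TTTNNCGC, and the capitals of neighbouring motifs may touch:
HEXIM1: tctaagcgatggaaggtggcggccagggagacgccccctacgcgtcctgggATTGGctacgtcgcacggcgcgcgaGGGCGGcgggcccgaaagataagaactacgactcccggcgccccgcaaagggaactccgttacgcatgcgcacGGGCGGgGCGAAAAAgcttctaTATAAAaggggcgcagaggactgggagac
The TATA box begins at position -29 from the start. Windows of 300 bases (250 before and 50 after the start) were searched in the 27305 promoters of the RefSeq table. A TATA box is found in 12% of them, a CCAAT box in 35.7%, a GC box in 44.6% and the E2F motif in 6.90%. Among the 7920 tested genes with a promoter there (78.9% of those tested) the shares were 4.61%, 38.4%, 72.9% and 11.7%, in that order. A match is a description of the letters only.

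The gene lists used from here on were chosen with earlier results of these data known, so their shares are a description. Of 25 tested genes of P-TEFb and elongation, 10 rose (40%, against 27.7% of all genes tested) and 6 fell (24%, against 28.5%) over the 4 lines. Of these 3 were core genes that were higher (12%, against 6.09%) and 1 was lower (4%, against 5.85%; 0 to 2 when 1 library was left out), so the falls were near the share of all genes. AFF4, the scaffold of the super elongation complex, was 1.01 ± 0.09 higher on the log2 scale and MLLT3, another subunit of it, 1.05 ± 0.11, while NELFA, a subunit of the pausing factor NELF, was 0.77 lower (log2 difference -0.77 ± 0.11; SE, as above). ELL2, an elongation factor, rose over the lines (1.48 ± 0.24) and was not core, with 0.24 in NCI-H1299. CDK9, the kinase of P-TEFb, had a log2 difference of 1.27 in SKM-1 and 0.05 in NCI-H1299, and the changes differed between lines (limma F test, adjusted p = 0.0192). POLR2A, the largest subunit of RNA polymerase II, was a core gene at 1.12 ± 0.15. Among 39 genes of the polymerase and Mediator 11 rose (28.2%), 10 fell (25.6%) and 2 were core genes, both higher (5.13%; 0 to 3 when 1 library was left out), which are about the shares of all genes tested.

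Of the targets of the drug, BRD2 was a core gene and BRD3 was not. BRD2 had 408 and 392 FPKM with ABBV-075 against 125.4 and 122 FPKM with DMSO in NCI-H1299, and 104 and 81.1 FPKM with ABBV-075 against 64.3 and 63.1 FPKM with DMSO in Kasumi-1. SKM-1 and MV-4-11 lay between them, with log2 differences of 0.72 and 0.89, against 1.69 in NCI-H1299 and 0.52 in Kasumi-1. BRD3 had a difference over the lines of 0.06 (95% interval -0.13 to 0.26; limma, adjusted p = 0.586). Among 24 tested readers, writers and erasers of acetylation 10 rose (41.7%, against 27.7% of all genes tested) and 3 fell (12.5%, against 28.5%). The core held 3 of them that were higher (12.5%, 1 without Kasumi-1 ABBV-075 replicate 1 and 6 without SKM-1 DMSO replicate 2) and 1 that was lower. The acetyltransferases KAT2B (0.91 ± 0.13) and EP300 (0.61 ± 0.08) were core genes that were higher, and their relative KAT2A (-1.83 ± 0.20) was a core gene that was lower (SE, log2 difference over the lines).

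Histone genes had the largest rises, ordered by the change in the weakest line. HIST2H2BE, which encodes an H2B protein, had 165 and 185 FPKM with ABBV-075 against 1.57 and 1.78 FPKM with DMSO in SKM-1, and 26.5 and 27.6 FPKM with ABBV-075 against 1.60 and 1.84 FPKM with DMSO in NCI-H1299. In MV-4-11 it had 23.4 and 26.5 FPKM with ABBV-075 against 1.14 and 1.36 FPKM with DMSO, and in Kasumi-1 18.3 and 17.7 FPKM with ABBV-075 against 0.769 and 0.594 FPKM with DMSO. The treated SKM-1 libraries stood far above the treated libraries of the other lines, whereas the DMSO libraries of all lines were near each other. HIST1H2AC, an H2A gene, had 330 and 396 FPKM with ABBV-075 against 9.04 and 11.9 FPKM with DMSO in SKM-1, and 200.8 and 208 FPKM with ABBV-075 against 15.7 and 16.6 FPKM with DMSO in NCI-H1299. Its log2 difference over the lines was 3.97 ± 0.18, between 3.44 in MV-4-11 and 4.99 in SKM-1. HIST1H2BD (4.36 ± 0.20), the H4 gene HIST2H4A (4.54 ± 0.20), the H2A gene HIST2H2AA4 (3.52 ± 0.22) and the linker histone gene HIST1H1C (2.78 ± 0.22) were also core genes (SE, log2 difference, block fit).

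Of 20 tested histone genes 17 rose over the lines (85%, against 27.7% of all genes tested) and 2 fell (10%, against 28.5%). The core held 10 of them, all higher (50%, against 6.09%). The count of core members was 9 to 11 when any 1 library was left out. Of 38 histone genes found, 20 were tested. A gene below the minimum with DMSO could be tested only through its treated libraries. HIST2H2BE was such a gene in Kasumi-1 (0.769 and 0.594 FPKM with DMSO). This can raise the shares of the list, and they were not redone without such genes. The change differed between lines for 17 of the 20 (85%, against 34.1% of all genes tested). H1F0 rose over the lines with 3.52 in SKM-1 and 0.07 in MV-4-11, and H2AFJ was not core either, with 0.53 in MV-4-11 as its smallest log2 difference. Most mRNAs of the clustered histone genes are known to lack a poly-A tail, and these libraries were made by poly-A selection, so the values speak for the tailed transcripts only. HIST2H4A, HIST2H2AA4 and HIST2H2BC have near-identical copies that may share reads, and no source used here gives the strand setting of the counting, so their values are uncertain.

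The promoters of HIST2H2BE, HIST1H2AC and HIST1H2BD are shown as 3 examples of the core histone genes. They are the 200 bases before the start, 5′ to 3′ on the strand of the gene (RefSeq, GRCh38.p14). HIST2H2BE lies at chr1:149886683-149886882 on the minus strand, HIST1H2AC at chr6:26123972-26124171 and HIST1H2BD at chr6:26157921-26158120, both on the plus strand. Capitals mark the octamer (ATTTGCAT), the TATA box, the CCAAT box and the GC box on either strand:
HIST2H2BE: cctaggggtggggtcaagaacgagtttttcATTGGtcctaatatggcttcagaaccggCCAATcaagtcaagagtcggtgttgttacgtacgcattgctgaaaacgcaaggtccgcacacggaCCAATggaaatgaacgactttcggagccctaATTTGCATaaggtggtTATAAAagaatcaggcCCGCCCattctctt
HIST1H2AC: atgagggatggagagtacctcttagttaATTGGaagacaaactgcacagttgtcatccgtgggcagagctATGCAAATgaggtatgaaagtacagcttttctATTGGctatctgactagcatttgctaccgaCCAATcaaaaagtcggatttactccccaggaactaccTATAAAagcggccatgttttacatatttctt
HIST1H2BD: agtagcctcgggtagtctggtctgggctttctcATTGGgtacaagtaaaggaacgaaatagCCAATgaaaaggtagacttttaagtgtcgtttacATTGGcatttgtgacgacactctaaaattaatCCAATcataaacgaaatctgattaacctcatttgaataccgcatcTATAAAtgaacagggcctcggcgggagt
All 3 hold a TATA box, at -30, -31 and -28, and several CCAAT boxes. Not all core histone genes do. In the same stretch HIST2H2AA4 holds a TATA box at -30. Of the motifs searched, HIST2H4A holds only a GC box, at -99, and HIST1H1C only a CCAAT box, at -57. HIST2H2BE and HIST1H2AC hold the octamer, at -46 and -130. It is found in 1.80% of all promoter windows in the table and in 1.16% of those of genes tested. A comparison of motifs or base composition over the whole core is void, because 76.8% of the core genes that were higher had a promoter in the table.

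Other core genes that were higher ranged from a protease inhibitor to an iron store and a nuclear RNA. SERPINI1, the protease inhibitor neuroserpin, had 25.5 and 33.6 FPKM with ABBV-075 against 0.855 and 0.878 FPKM with DMSO in Kasumi-1, and 16.5 and 15.5 FPKM with ABBV-075 against 3.38 and 3.58 FPKM with DMSO in NCI-H1299. Its log2 differences were 1.92 in SKM-1, 2.80 in MV-4-11, 4.02 in Kasumi-1 and 1.92 in NCI-H1299. The light chain of the iron store ferritin, FTL, was at a high level in all libraries, with 15560 and 16250 FPKM with ABBV-075 against 3366 and 3548 FPKM with DMSO in MV-4-11. In NCI-H1299 FTL had 2262 and 2251 FPKM with ABBV-075 against 764 and 730 FPKM with DMSO, and no treated library overlapped the DMSO libraries of its line. The nuclear RNA NEAT1, the scaffold of paraspeckles, was 2.96 ± 0.28 higher over the lines, with 628 and 583 FPKM with ABBV-075 against 21.6 and 30.4 FPKM with DMSO in SKM-1. The detoxifying hydrolase EPHX1 (2.07 ± 0.13), the egg-sperm fusion family gene IZUMO4 (2.15 ± 0.13), the single-strand DNA binder NABP1 (2.10 ± 0.12) and OCEL1 (1.94 ± 0.12) completed the 15 genes that rose most in their weakest line (SE, log2 difference).

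**Figure D2:**
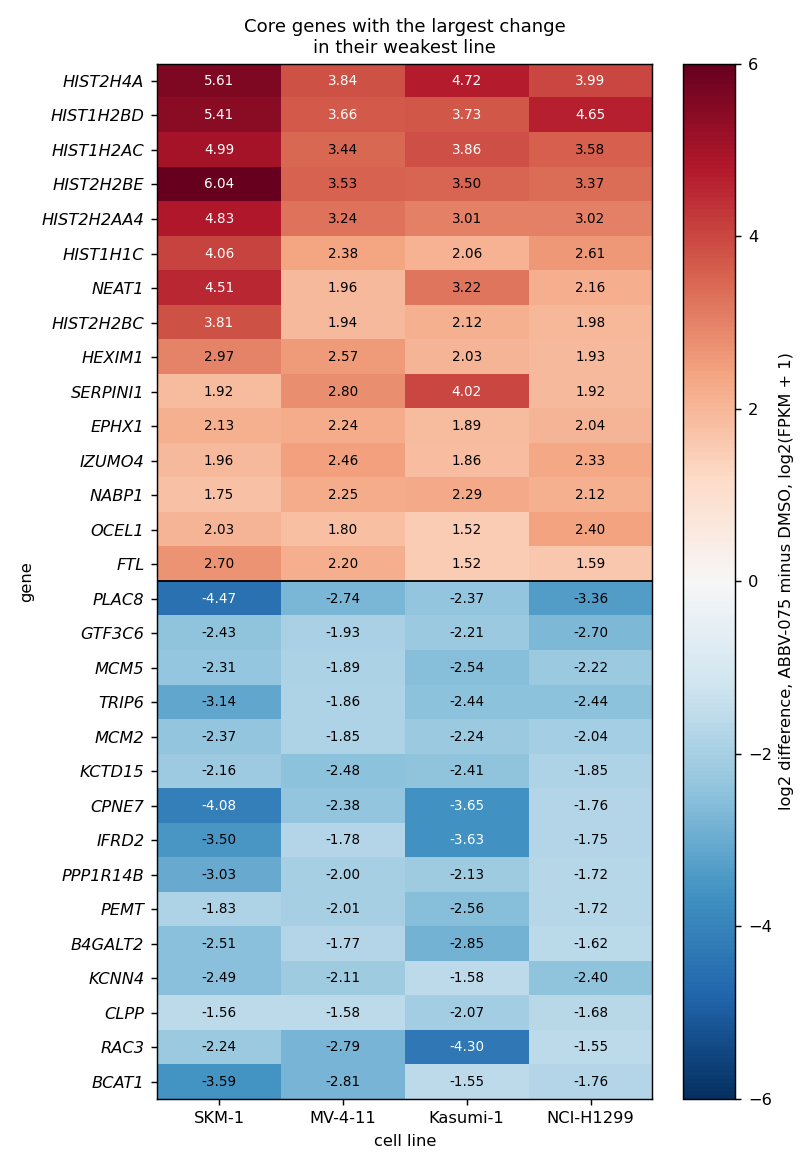
Log2 difference, ABBV-075 minus DMSO, of log2(FPKM + 1) in each line (columns) for 15 core genes that were higher (top) and 15 that were lower (bottom), chosen by their change in the line where it was smallest. Histone genes reach 3.01 to 6.04 in the top 5 rows, and the falls run from -1.55 for BCAT1 in Kasumi-1 to -4.47 for PLAC8 in SKM-1.

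Most of the tested genes of lysosomes and autophagy rose over the lines. Of 35 tested, 24 rose (68.6%, against 27.7% of all genes tested) and 2 fell over the lines, and 9 were core genes, all higher (25.7%, against 6.09%; 7 to 13 when 1 library was left out). The autophagy receptor SQSTM1 had 1664 and 1536 FPKM with ABBV-075 against 352 and 331 FPKM with DMSO in NCI-H1299, and 317 and 260 FPKM with ABBV-075 against 39.0 and 30.7 FPKM with DMSO in SKM-1. Its log2 difference was 1.83 ± 0.23 over the lines, with 1.06 in MV-4-11. GABARAPL1 (1.46 ± 0.12) and GABARAPL2 (1.20 ± 0.10), which tag autophagosome membranes, and the cholesterol exporter NPC1 (1.07 ± 0.12) were also core genes. PSAP, the precursor of saposins, rose over the lines (1.23 ± 0.19) and was not core, with 0.34 in Kasumi-1.

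Of 29 tested genes of growth restraint, 17 rose (58.6%, against 27.7% of all genes tested), 3 fell and 9 were not called. The core held 6 that were higher (20.7%, against 6.09%) and 1, KLF11, that was lower. CDKN1A, which encodes the cyclin-dependent kinase inhibitor p21, had 202 and 165 FPKM with ABBV-075 against 20.5 and 14.54 FPKM with DMSO in SKM-1. In Kasumi-1 it had 14.6 and 9.12 FPKM with ABBV-075 against 0.804 and 0.906 FPKM with DMSO, in MV-4-11 130 and 133 FPKM with ABBV-075 against 44.97 and 53.3 FPKM with DMSO, and in NCI-H1299 59.2 and 53.2 FPKM with ABBV-075 against 24.0 and 25.1 FPKM with DMSO. The groups did not overlap in any line, and NCI-H1299 had the smallest log2 difference, 1.16, against 3.33 in SKM-1. In Kasumi-1 CDKN1A passed the minimum through its treated libraries alone, which can raise the shares of this list and of the p53 targets. TP53INP1, an autophagy and stress gene, was 2.46 ± 0.24 higher, the stress gene SESN3 1.27 ± 0.15 and GADD45B 0.996 ± 0.12 (SE, log2 difference). Of 19 tested p53 targets 9 rose (47.4%) and 2 fell, with 7 core genes that were higher (36.8%) and 1, the nuclease gene AEN (-1.98 ± 0.19), that was lower. That core count was 3 without MV-4-11 DMSO replicate 2. The oxidoreductase gene TP53I3 (1.76 ± 0.21) was 1.08 higher in NCI-H1299 on the log2 scale.

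A list of alpha-arrestins and glucose sensing, glucose transporters included, had 8 tested genes. Of these 4 rose (50%, against 27.7% of all genes tested) and 1 fell (12.5%, against 28.5%). The core held 2 of them, both higher (25%, against 6.09%), and 1 without MV-4-11 ABBV-075 replicate 1. Both were alpha-arrestins, a family known for adaptor proteins of membrane traffic. ARRDC4 had 118 and 122 FPKM with ABBV-075 against 7.01 and 5.60 FPKM with DMSO in MV-4-11, and 3.09 and 3.32 FPKM with ABBV-075 against 0.0931 and 0.1135 FPKM with DMSO in NCI-H1299. In NCI-H1299 ARRDC4 passed the minimum through its treated libraries alone. Its place among the tested genes thus rests on its rise there, which can raise the shares of this list. ARRDC3 was 1.86 ± 0.23 higher over the lines (SE, log2 difference). TXNIP, an alpha-arrestin that restrains glucose uptake, was not tested, since it did not reach 1 FPKM in NCI-H1299. It had 0.536 and 0.699 FPKM with ABBV-075 against 0.198 and 0.337 FPKM with DMSO there, and 2870 and 3031 FPKM with ABBV-075 against 142 and 120 FPKM with DMSO in SKM-1.

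In the BCL2 family, which sets the threshold for the mitochondrial death pathway, the changes ran in both directions. BCL2, a blocker of apoptosis, was a core gene that was lower. It had 1.71 and 1.47 FPKM with ABBV-075 against 26.1 and 25.9 FPKM with DMSO in SKM-1, 8.81 and 9.001 FPKM with ABBV-075 against 39.9 and 36.3 FPKM with DMSO in MV-4-11, and 2.19 and 2.88 FPKM with ABBV-075 against 10.1 and 9.46 FPKM with DMSO in Kasumi-1. In NCI-H1299 it was near the lower limit of 1 FPKM, with 0.402 and 0.446 FPKM with ABBV-075 against 1.49 and 1.12 FPKM with DMSO. The log2 difference of BCL2 was -3.38 in SKM-1 and -0.69 in NCI-H1299, on the log2(FPKM + 1) scale. That scale understates changes at such low levels, so the 2 sizes are hard to compare. The death-promoting BCL2L11 (1.11 ± 0.08) and the survival gene MCL1 (0.91 ± 0.10) were core genes that were higher. BCL2L1, another survival gene, fell over the lines (-0.92 ± 0.17) and was not core.

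Genes of DNA replication fell, and were the list with the largest share of core genes. The lists were chosen with earlier results of these data known, so this rank is a description. Of 46 tested genes of origin licensing, forks and the G1/S step, 42 fell (91.3%, against 28.5% of all genes tested) over the lines and 0 rose, and 28 were core genes, all lower (60.9%, against 5.85% of all genes tested; 22 to 29 when 1 library was left out). MCM5, a subunit of the replicative helicase, had 18.1 and 11.9 FPKM with ABBV-075 against 101 and 58.1 FPKM with DMSO in SKM-1, and 11.98 and 11.9 FPKM with ABBV-075 against 60.4 and 57.97 FPKM with DMSO in NCI-H1299. In MV-4-11 it had 29.1 and 28.8 FPKM with ABBV-075 against 99.2 and 122 FPKM with DMSO, and in Kasumi-1 12.6 and 5.28 FPKM with ABBV-075 against 55.2 and 50.3 FPKM with DMSO. Every treated library lay below every DMSO library of all lines. The log2 differences were close to each other, at -2.31 in SKM-1, -1.89 in MV-4-11, -2.54 in Kasumi-1 and -2.22 in NCI-H1299, and no difference between lines was called (limma F test, adjusted p = 0.646).

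MCM2, of the same helicase, had a log2 difference of -2.12 ± 0.14 over the lines, between -1.85 and -2.37, CDC45, which activates the helicase, of -1.87 ± 0.12, and POLE2, a subunit of DNA polymerase epsilon, of -1.80 ± 0.12 (SE, 2 libraries per line and treatment). POLD2, of DNA polymerase delta, and PRIM1, of primase, fell over the lines and were not core, with -0.57 in NCI-H1299 and -0.21 in Kasumi-1 as their smallest changes. The list's median was -1.63 in SKM-1, -1.06 in MV-4-11, -1.04 in Kasumi-1 and -1.16 in NCI-H1299, against medians of 0.09, 0.02, -0.06 and -0.04 over all genes tested. In these bulk samples, fewer cells in S phase and less RNA per cell cannot be told apart.

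The promoters of MCM2 and POLE2 are shown as examples from this group and do not stand for all of it (RefSeq, GRCh38.p14, 200 bases before the start, 5′ to 3′). MCM2 lies at chr3:127598211-127598410 on the plus strand and POLE2 at chr14:49688215-49688414 on the minus strand. Capitals mark the E-box CACGTG, which MYC and its relatives can bind, the GC box and the E2F motif:
MCM2: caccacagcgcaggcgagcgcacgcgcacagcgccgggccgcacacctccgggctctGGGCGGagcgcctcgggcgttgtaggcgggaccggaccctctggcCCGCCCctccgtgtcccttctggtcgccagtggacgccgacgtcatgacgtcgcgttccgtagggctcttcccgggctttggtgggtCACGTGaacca
POLE2: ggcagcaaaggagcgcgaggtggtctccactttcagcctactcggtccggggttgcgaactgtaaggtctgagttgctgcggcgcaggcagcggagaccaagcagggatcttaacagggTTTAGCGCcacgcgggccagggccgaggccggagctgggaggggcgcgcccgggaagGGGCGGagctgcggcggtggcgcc
The E-box of MCM2 begins at -11 and the E2F motif of POLE2 at -81. The same stretch of CDC45, another core gene of the group, holds CCAAT boxes and a GC box but no CACGTG and no TTTNNCGC, the letters searched for the E2F motif. Other forms of that motif were not searched. An E-box is found in 7.43% of all promoter windows in the table and in 11.2% of those of genes tested. For the E2F motif these shares are 6.90% and 11.7%.

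Repair genes fell as well. Of 27 tested genes of homologous recombination and the Fanconi pathway, 23 fell (85.2%, against 28.5% of all genes tested) and 0 rose, and 8 were core genes, all lower (29.6%, against 5.85%; 5 without Kasumi-1 DMSO replicate 1). RAD54L, a motor protein of recombination, had a log2 difference of -1.42 ± 0.16, FANCD2 of -1.37 ± 0.14 and PALB2, the partner of BRCA2, of -1.13 ± 0.10 (SE). Mitosis genes were different. Of 40 tested, 13 fell over the lines (32.5%) and 0 rose, the only core gene was FOXM1 (-1.29 ± 0.18), a transcription factor of late cell cycle genes, and the change differed between lines for 37 (92.5%, against 34.1% of all genes tested). The median mitosis gene changed by -1.60 in NCI-H1299, by -0.32 in MV-4-11, by -0.08 in SKM-1 and by 0.36 in Kasumi-1 on the log2 scale.

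Genes of mitochondrial ribosomes fell. Of 44 tested mitochondrial ribosomal proteins 37 fell (84.1%, against 28.5% of all genes tested) and 2 rose over the lines, and 14 were core genes, all lower (31.8%, against 5.85%). The change differed between lines for 6 (13.6%, against 34.1%). MRPL3 had 22.9 and 26.8 FPKM with ABBV-075 against 109 and 102 FPKM with DMSO in SKM-1, and 39.55 and 37.95 FPKM with ABBV-075 against 112 and 111 FPKM with DMSO in NCI-H1299. Its log2 difference was -1.67 ± 0.10 over the lines, that of MRPL11 -1.82 ± 0.20 and that of MRPL24 -1.75 ± 0.19 (SE). The core count was 24 without SKM-1 DMSO replicate 2 and 6 without NCI-H1299 DMSO replicate 1. Of 42 tested cytosolic ribosomal proteins 3 rose (7.14%) and 3 fell (7.14%) over the lines and 0 were core genes, and the number that fell was 0 without NCI-H1299 ABBV-075 replicate 1 and 8 without SKM-1 DMSO replicate 2.

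Of 62 tested genes of ribosome biogenesis, which assemble ribosomes in the nucleolus, 56 fell (90.3%, against 28.5% of all genes tested) and 0 rose over the lines. Of these 16 were core genes, all lower (25.8%, against 5.85%). The core count was 33 without SKM-1 DMSO replicate 2 and 8 without MV-4-11 ABBV-075 replicate 1. The change differed between lines for 45 of the 62 (72.6%, against 34.1% of all genes tested). The median change was -1.82 in SKM-1, -1.45 in Kasumi-1, -0.61 in NCI-H1299 and -0.39 in MV-4-11. NOP16 had 7.18 and 6.65 FPKM with ABBV-075 against 97.3 and 50.1 FPKM with DMSO in SKM-1, and 17.3 and 22.5 FPKM with ABBV-075 against 46.3 and 52.3 FPKM with DMSO in MV-4-11. NPM3 (-1.80 ± 0.17), WDR74 (-1.64 ± 0.18) and GAR1 (-1.52 ± 0.14), which are known in ribosome or small nucleolar RNA assembly, were core genes (SE, log2 difference).

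Of 31 tested genes of nucleotide synthesis, 24 fell over the lines (77.4%, against 28.5% of all genes tested) and 1 rose, with 9 core genes that were lower (29%, against 5.85%; 15 without SKM-1 DMSO replicate 2) and 1 that was higher. The purine enzymes PFAS (-1.97 ± 0.23) and PAICS (-1.45 ± 0.14) were core genes (SE, log2 difference). Of 27 tested genes of amino acid stress and one-carbon metabolism 22 fell (81.5%) and 0 rose, with 10 core genes, all lower (37%). The hormone STC2 had 1.02 and 0.954 FPKM with ABBV-075 against 24.2 and 17.7 FPKM with DMSO in SKM-1, and 0.301 and 0.389 FPKM with ABBV-075 against 4.36 and 3.52 FPKM with DMSO in NCI-H1299. PHGDH, the first enzyme of serine synthesis (-1.98 ± 0.21), the arginine transporter SLC7A1 (-2.04 ± 0.15) and MTHFD1L of the mitochondrial folate pathway (-1.99 ± 0.14) were core genes. SLC7A5, a carrier of large amino acids, was not: it had 0.19 in NCI-H1299 and -2.40 in Kasumi-1. Of 20 tested tRNA synthetases 16 fell (80%) and 0 rose, and LARS (-1.52 ± 0.16) and MARS (-1.09 ± 0.12) were among 5 core genes, which were 8 without SKM-1 DMSO replicate 2 and 2 without NCI-H1299 ABBV-075 replicate 1.

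Core genes outside these lists included PLAC8, which had the largest fall in its weakest line, a small cysteine-rich protein of blood and epithelial cells. It had 4.24 and 4.33 FPKM with ABBV-075 against 149 and 90.8 FPKM with DMSO in SKM-1, and 5.15 and 5.15 FPKM with ABBV-075 against 65.1 and 59.5 FPKM with DMSO in NCI-H1299. MV-4-11 kept the highest level, with 130 and 127 FPKM with ABBV-075 against 895 and 840 FPKM with DMSO, and Kasumi-1 had 6.46 and 12.2 FPKM with ABBV-075 against 46.2 and 54.6 FPKM with DMSO. The groups did not overlap in any line. GTF3C6, a subunit of the RNA polymerase III factor TFIIIC (-2.32 ± 0.14), the LIM adaptor TRIP6 (-2.47 ± 0.14), KCTD15 (-2.23 ± 0.12), the copine CPNE7 (-2.97 ± 0.26), IFRD2 (-2.66 ± 0.26) and the phosphatase inhibitor PPP1R14B (-2.22 ± 0.16) followed (SE, log2 difference). The membrane lipid enzyme PEMT (-2.03 ± 0.18), the galactosyltransferase B4GALT2 (-2.19 ± 0.19), the potassium channel KCNN4 (-2.15 ± 0.12), the mitochondrial protease CLPP (-1.73 ± 0.12), the GTPase RAC3 (-2.72 ± 0.32) and the leucine transaminase BCAT1 (-2.43 ± 0.23) completed the 15.

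Several lists held few core genes, near the 5.85% of all genes tested that were lower in the core. Of 31 proteasome genes 12 fell (38.7%, against 28.5%) and 1, PSMC3 (-0.97 ± 0.10), was a core gene. Of 28 heat shock and folding genes 16 fell (57.1%) and 4 rose (14.3%), and 2 were core genes, HSPA9 (-1.38 ± 0.13) and CCT6A (-0.66 ± 0.10), which is 7.14% (1 without MV-4-11 ABBV-075 replicate 1, 5 without SKM-1 DMSO replicate 1). Cholesterol synthesis had 1 core gene of 25, EBP (-1.28 ± 0.17), and glycolysis 1 of 19, HK2 (-1.24 ± 0.18), the hexokinase that starts the pathway. The median cholesterol gene was at 0.31 in MV-4-11, -0.86 in SKM-1, -0.71 in Kasumi-1 and -0.16 in NCI-H1299. Among 13 AP-1 and immediate early genes 7 rose over the lines (53.8%, against 27.7% of all genes tested) and 1 fell (7.69%, against 28.5%). The only core gene among them was FOSL1 (-1.54 ± 0.15), which was lower. Of 9 tested brakes on MAP kinase signalling 0 were core and all 9 changed differently between lines (100%, against 34.1% of all genes tested). Housekeeping genes held 2 core genes that were higher, B2M and YWHAZ, and 2 that were lower, IPO8 and SNRPD3, among 25. These small counts moved when 1 library was left out: core genes that were lower numbered 1 to 3 for the proteasome, 0 to 2 for cholesterol synthesis and 1 to 3 for glycolysis, and housekeeping genes that were higher 0 to 2.

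**Figure D3:**
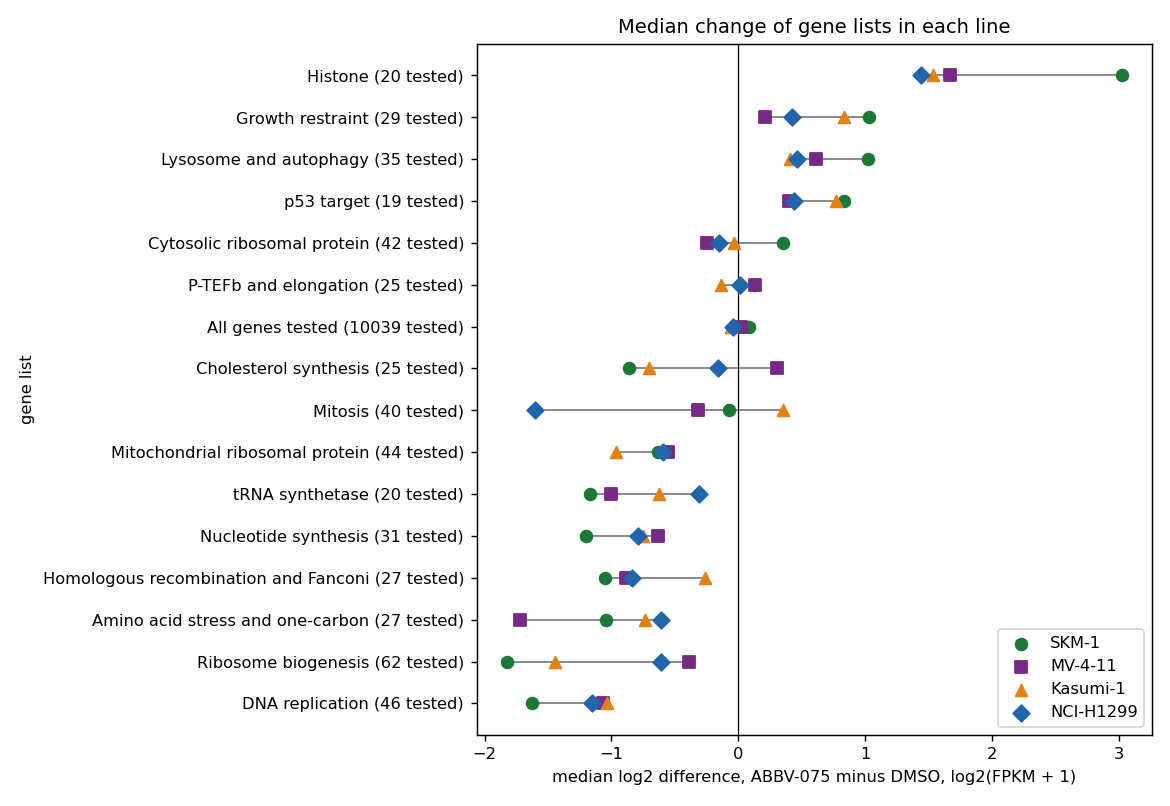
Median log2 difference, ABBV-075 minus DMSO, of the tested members of 15 gene lists and of all genes tested, in each line (symbols), with a grey line from the lowest to the highest line. DNA replication lies between -1.63 and -1.04 in the 4 lines, while mitosis reaches from -1.60 in NCI-H1299 to 0.36 in Kasumi-1.

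The direction of the core genes is fixed by how they were chosen, and the size was free to differ between lines within the calls. For the median core gene that was higher, the smallest of the 4 log2 differences was 0.494 of the largest (quartiles 0.402 and 0.600), and for the median one that was lower it was 0.469 (quartiles 0.376 and 0.569). The smallest was at least 0.5 of the largest for 297 of 611 genes that were higher (48.6%) and 239 of 587 that were lower (40.7%). This ratio falls below 1 for equal changes too, because each of the 4 estimates has an error (median SE 0.192 over genes tested). The calls also set a limit to the smallest change. What ratio equal changes would give was not tested, so these values do not measure a true difference in size. A difference between lines was called for 228 core genes that were higher (37.3%) and 278 that were lower (47.4%), against 34.1% of all genes tested (limma F test of 3 differences, 3422 genes). For the other 692 core genes none was called, which does not show that the sizes are equal. Without SKM-1 DMSO replicate 1 the F test called 6422 genes in all and 979 core genes, without SKM-1 DMSO replicate 2 it called 925 core genes, and without Kasumi-1 ABBV-075 replicate 1 it called 5213 in all. Leaving out 1 library of NCI-H1299, or MV-4-11 ABBV-075 replicate 2, gave 2229 to 2278 in all, and 264 to 331 core genes were called without any 1 library of MV-4-11 or NCI-H1299 or without Kasumi-1 DMSO replicate 1.

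The lines differed in the size of the response. Among core genes that were higher the median change was 1.11 in SKM-1, 0.999 in Kasumi-1, 0.85 in MV-4-11 and 0.82 in NCI-H1299, and among those that were lower -1.33, -1.25, -0.93 and -0.98 in the same lines. SKM-1 had the largest of the 4 changes for 280 of the genes that were higher and 251 of those that were lower, while NCI-H1299 had it for 61 and 80. The smallest change was in NCI-H1299 for 216 and 188 of them and in MV-4-11 for 201 and 220. SKM-1 and Kasumi-1 also held the pairs of libraries furthest apart (SD 0.661 for SKM-1 DMSO and 0.489 for Kasumi-1 with ABBV-075). The part of this in the order of the lines was not tested, and the order was not redone without SKM-1 DMSO replicate 2. Across genes, a description over points that share libraries, the changes of core genes that were higher correlated between pairs of lines with Pearson's r from 0.551 (Kasumi-1 with NCI-H1299) to 0.682 (SKM-1 with NCI-H1299). Among those that were lower r ran from 0.356 (Kasumi-1 with NCI-H1299) to 0.647 (SKM-1 with Kasumi-1), and over all 10039 genes from 0.596 to 0.664. Different lines share no library.

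**Figure D4:**
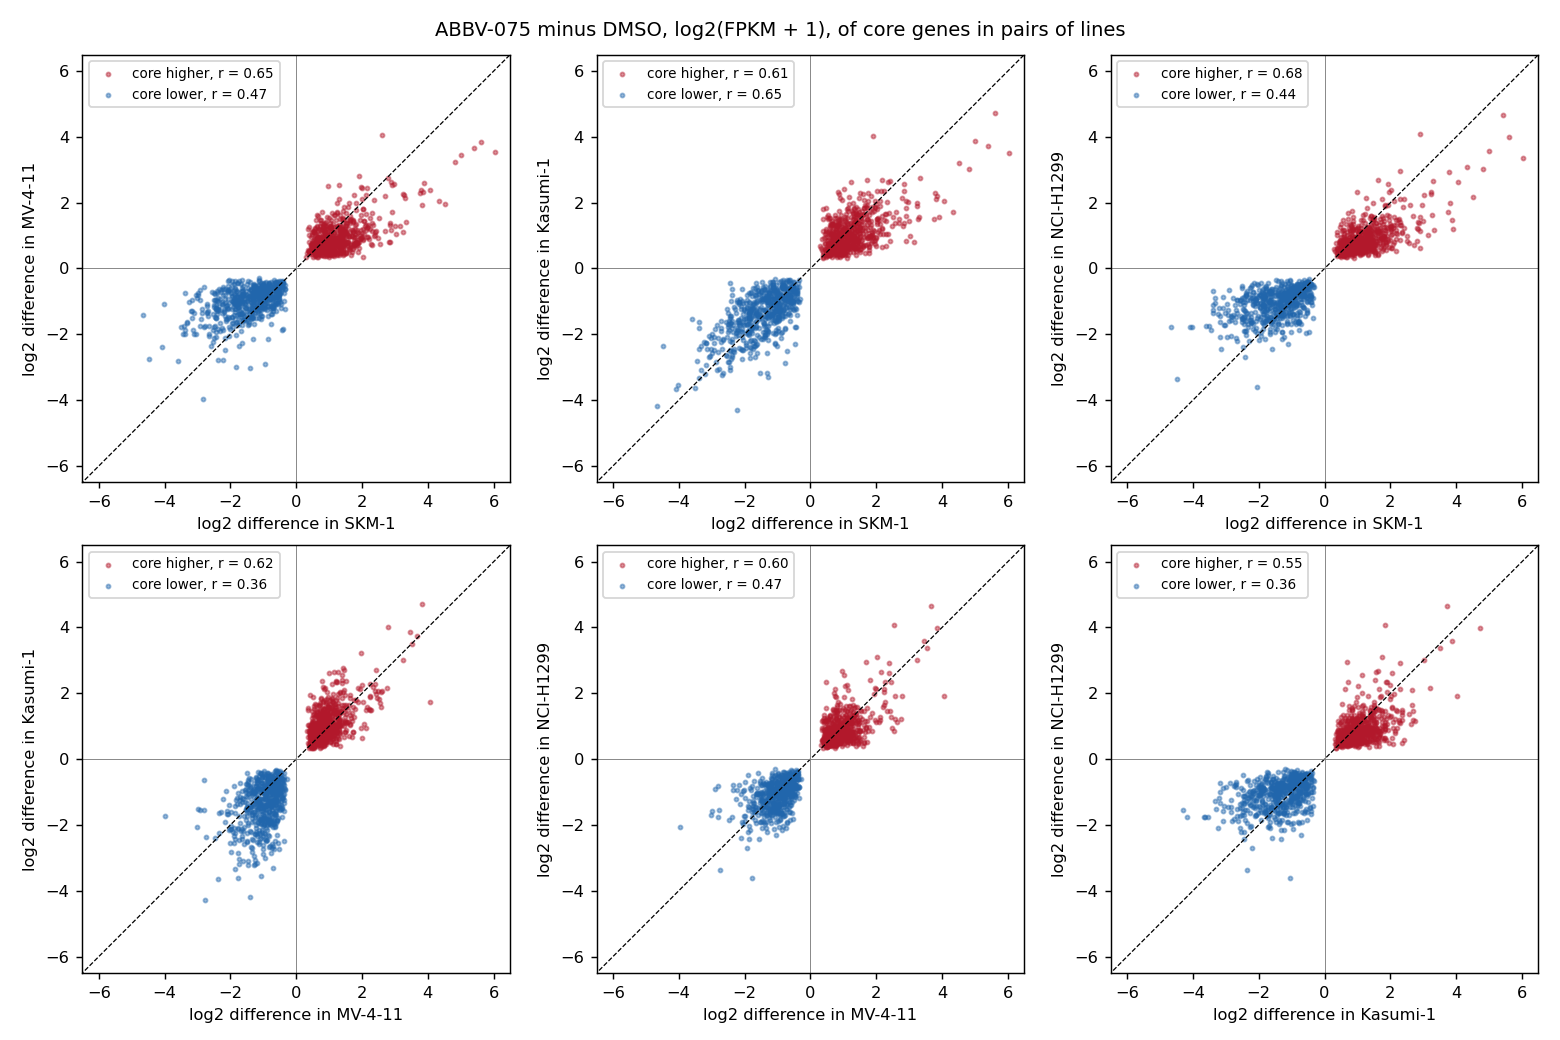
Log2 differences, ABBV-075 minus DMSO, of log2(FPKM + 1) of the core genes in each of the 6 pairs of lines; red points are 611 genes that were higher, blue points 587 that were lower, and the dashed line marks equal change. Points fall towards the SKM-1 axis in its 3 panels, and r is lowest for lower genes in Kasumi-1 against NCI-H1299, at 0.36.

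Some core genes changed by nearly the same amount everywhere. PCYOX1, an oxidase of lipid-modified cysteine, had 21.6 and 26.4 FPKM with ABBV-075 against 7.38 and 10.2 FPKM with DMSO in SKM-1, and 21.97 and 22.9 FPKM with ABBV-075 against 8.59 and 9.39 FPKM with DMSO in NCI-H1299. Its log2 differences lay between 1.23 and 1.42. MZT2A, which belongs to the gamma-tubulin complex, lay between -1.48 and -1.32, and C12orf65, a release factor of mitochondrial translation, between -1.11 and -0.93. ZYG11B, a substrate receptor of a ubiquitin ligase, lay between 1.01 and 1.26 and DOPEY2 between 0.89 and 1.13. These were picked for a small SD over the lines and are a description.

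At the other end NME1, a nucleoside diphosphate kinase, had 10.6 and 8.96 FPKM with ABBV-075 against 314 and 238 FPKM with DMSO in SKM-1, and 79.7 and 79.4 FPKM with ABBV-075 against 199 and 226 FPKM with DMSO in MV-4-11. In Kasumi-1 it had 19.4 and 14.99 FPKM with ABBV-075 against 332 and 324 FPKM with DMSO, and in NCI-H1299 112 and 107 FPKM with ABBV-075 against 383 and 366 FPKM with DMSO. All treated libraries lay below all DMSO libraries, but SKM-1 (-4.67) and Kasumi-1 (-4.19) fell much further than MV-4-11 (-1.40) and NCI-H1299 (-1.77). The nucleolar genes CCDC86 and MYBBP1A had the same order of lines, with -4.02 and -2.79 in SKM-1 and -1.08 and -0.55 in MV-4-11. These too were picked for their spread.

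MYC, the growth regulator, was not a core gene. It had 3.17 and 3.27 FPKM with ABBV-075 against 309 and 178 FPKM with DMSO in SKM-1, and 29.4 and 28.1 FPKM with ABBV-075 against 265 and 230 FPKM with DMSO in Kasumi-1. In MV-4-11 it had 80.8 and 76.7 FPKM with ABBV-075 against 178 and 174 FPKM with DMSO, and in NCI-H1299 78.8 and 87.6 FPKM with ABBV-075 against 107 and 100 FPKM with DMSO. The groups were apart in every line, but the log2 difference of -0.31 in NCI-H1299 was not called (limma, adjusted p = 0.258), and the changes differed between lines (-5.80 in SKM-1, -3.06 in Kasumi-1 and -1.15 in MV-4-11; F test, adjusted p = 4.82e-06). CDK6, a cell cycle kinase, fell in SKM-1 (-1.83) and MV-4-11 (-2.01) and not in Kasumi-1 (0.37; limma, adjusted p = 0.178).

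A total of 477 genes (4.75%) were called in opposite directions in 2 or more lines. LGALS1, a galectin, was higher in SKM-1 (2.80) and MV-4-11 (1.10) and lower in Kasumi-1 (-0.92) and NCI-H1299 (-0.92). SPRY2, a brake on MAP kinase signalling, had 1.18 and 0.93 in SKM-1 and MV-4-11 and -1.01 and -1.40 in Kasumi-1 and NCI-H1299. The death receptor TNFRSF10B was 2.77 higher in SKM-1 and 0.83 lower in Kasumi-1 (log2 difference -0.83), and the fatty acid desaturase SCD had 0.37 in MV-4-11 and -1.92 in SKM-1.

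Genes called the same way in 3 lines were also read in the line left over, as a description. The fit of all lines gives each gene 1 spread for the 4 lines, and the minimum of 1 FPKM was asked of every line, so this reading is not independent of the choice. In NCI-H1299, the lung line, 611 of 872 genes that were higher in all leukaemia lines were called higher (70.1%, against 15.6% of all genes tested), and 587 of 759 that were lower were called lower (77.3%, against 19.3%). Of these sets 10 and 7 genes were called in the opposite direction. Their median log2 difference there was 0.66 and -0.82, against 0.96 and -1.15 for the mean of the 3 lines that chose them. In SKM-1 the shares were 91.3% of 669 (28.9% of all genes tested) and 87.9% of 668 (23.4%), in Kasumi-1 84.3% of 725 (22%) and 81.3% of 722 (26.9%), and in MV-4-11 67.9% of 900 (16.2%) and 63.1% of 931 (14.6%).

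With each line fitted alone, so that no spread is shared, NCI-H1299 had the highest shares and SKM-1 the lowest. In NCI-H1299 90.1% of 524 genes were called higher (32.5% of all genes tested) and 92.6% of 680 lower (38.3%), and in MV-4-11 83.4% of 566 (29.5%) and 83.6% of 754 (27.4%). In Kasumi-1 the shares were 60.7% of 778 (14.3%) and 77.2% of 816 (19.6%), and in SKM-1 56.4% of 837 (13%) and 57% of 1105 (12%). The share with the same sign lay between 93.5% and 97.4% in these 8 sets, against 45.6% to 54.4% of all genes tested. The minimum of 1 FPKM in every line was kept, and the background is not matched for the spread of each gene.

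**Figure D5:**
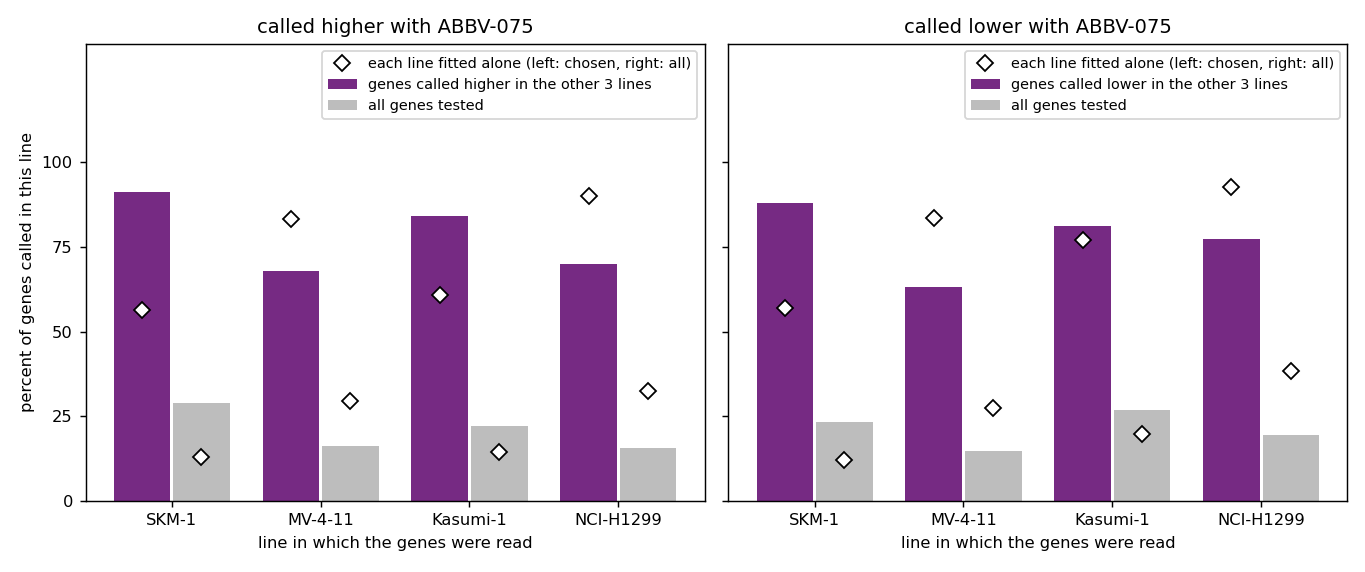
Percent of genes called higher (left) or lower (right) with ABBV-075 in the line on the horizontal axis, for genes called the same way in the other 3 lines (purple) and for all genes tested (grey); diamonds are the same percents with each line fitted alone. The purple bars reach 63.1% to 91.3% and the grey bars 14.6% to 28.9%, while the diamonds of the chosen genes reach 56.4% to 92.6%.

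MED20, GTPBP4 and STOML2 lay just inside, with a largest adjusted p of 0.0497 to 0.0498 over the lines, and SLC11A2, A1BG-AS1 and MGAT4A just outside, with at most 0.0502. Of the 1198 core genes, 203 reached 1 FPKM in only 1 of the treatments in at least 1 line. These passed the minimum through the group where they are high, and the other 995 (504 higher, 491 lower) reached it in both. Genes of the first kind can raise the shares of core genes in the lists, which were not redone without them.

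For ABBV-744 at 200 nM the same core genes are given beside ABBV-075 at 100 nM, since both use the DMSO libraries and the doses differ. The median ABBV-744 minus DMSO change of core genes that were higher was 0.39 in SKM-1, 0.38 in MV-4-11, 0.42 in Kasumi-1 and 0.20 in NCI-H1299, and that of the lower ones was -0.37, -0.33, -0.60 and -0.26 in the same order. HIST1H2AC had 3.36, 2.14, 2.91 and 1.88 with ABBV-744 in that order of lines, beside 4.99, 3.44, 3.86 and 3.58 with ABBV-075. HEXIM1 had 0.87, 1.01, 0.82 and 0.61 with ABBV-744, beside 2.97, 2.57, 2.03 and 1.93 with ABBV-075. MCM5 had -0.04, -0.23, -0.86 and -0.27 with ABBV-744, beside -2.31, -1.89, -2.54 and -2.22 with ABBV-075.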

How the data were processed

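Poly-A RNA was sequenced in 24 libraries of 4 established lines, and 16 (ABBV-075 and DMSO, 2 per line) entered the tests. The authors deposited 1 table of FPKM values with 24 columns, all mapped to samples by name. DESeq2 is named in the submitters' processing notes, with no version or role. Aligner, quantifier, build and strand setting: not given in the sources used here. FPKM is not a count, so no count test was run, no counting interval was computed and the depth is unknown.

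Values were analysed as log2(FPKM + 1) for 10039 genes, 8846 of them under a current symbol and 9561 under a current or older one. limma 3.58.1 in R 4.3.3 (lmFit, eBayes with trend and robust, statmod 1.5.0) fitted treatment with the line as block (11 residual degrees of freedom), and 8 group means with a contrast per line and an F test of their differences (8 degrees of freedom). Tests were two-sided with Benjamini-Hochberg adjustment, and the procedure was tested on simulated data. The smallest p of an exact permutation test of 2 libraries against 2 is 0.333, and limma's calls borrow the spread across groups and genes. Errors after ± are SE of the block fit, whose residual also holds the differences between lines in the size of the change. ABBV-744 values come from a fit of 12 group means. Plots used Python 3.11.15, numpy 2.4.6 and matplotlib 3.10.9.

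The 30 gene lists (807 genes, 802 found) and all members were chosen with earlier results of these data known. Named genes followed a rule: 15 core genes that rose most and 15 that fell most in their weakest line, the 6 with the smallest and the 6 with the largest SD over lines, the 6 with the lowest F test p among opposite calls, up to 4 core and 2 other members of each list, and a few genes always allowed (among them MYC, HEXIM1, SERPINI1, BRD2, BRD3, BCL2, CDK6, CDKN1A, TXNIP and CDK9). A minimum of 5 FPKM in the higher group applied to the first parts. Alternatives were another pseudocount, filter, scaling, threshold, moderation and fit, and leaving out each library or line. Some results of that rule are not reported here.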

Additional observations from a re-analysis of the deposited data

Results flagged for a closer look

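The change with ABBV-075 differed between the 4 lines for 3422 genes tested and for 506 core genes (limma F test, adjusted p under 0.05). Of the 53 genes named by a rule other than that for list members, though some also belong to a list, 35 were among them, and each entry that follows is the adjusted p of that test. Among core genes that were higher it was 9.01e-06 for HIST2H2BE, 0.000168 for SERPINI1, 0.000267 for HIST1H2BD, 0.000323 for NEAT1, 0.000773 for CDKN1A, 0.000819 for HIST2H4A, 0.00152 for HIST1H1C, 0.00425 for BRD2, 0.00436 for HIST2H2AA4, 0.00547 for HIST1H2AC, 0.0154 for FTL, 0.0218 for HIST2H2BC, 0.0263 for HEXIM1 and 0.0415 for OCEL1.

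Among core genes that were lower it was 1.15e-05 for NME1, 2.85e-05 for BCL2, 4.88e-05 for MYBBP1A, 0.000193 for CCDC86, 0.00111 for CPNE7, 0.00152 for BCAT1, 0.00187 for IFRD2, 0.00303 for TRIP6, 0.00526 for PLAC8, 0.0257 for RAC3, 0.0265 for PPP1R14B and 0.0292 for KCNN4. Outside the core it was 4.82e-06 for MYC, 8.50e-06 for TNFRSF10D, 9.01e-06 for LGALS1 and SPRY2, 1.15e-05 for TRIM8 and TNFRSF10B, 1.67e-05 for SCD, 0.000538 for CDK6 and 0.0192 for CDK9. TRIM8 had 1.88 in SKM-1 and -1.56 in Kasumi-1, and TNFRSF10D had 2.29 in SKM-1 and -0.40 in NCI-H1299 on the log2 scale. The SKM-1 DMSO pair, the widest apart, enters each of these tests through the change in SKM-1 and through the spread that all lines share. The counts of the F test without either library of the pair are given above. The part of the pair in these single p-values was not tested.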

How the results depend on the processing

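No paired analysis was possible because the labels give no replicate numbers, and those used here follow the order of deposition. With a mean of at least 5 FPKM in each line (6613 genes tested) 1716 genes rose over the lines, the core held 342 higher and 391 lower genes, and the F test called 1962 genes and 294 core genes. At an adjusted p under 0.01 the core held 291 higher and 291 lower genes, and the F test called 1469 and 156. With no minimum it called 6726 of 18483 genes, and with all 24 libraries 878 core genes. Without the line SKM-1, 948 genes were higher and 1056 lower in the other 3 lines. With each line fitted alone, the shares read in SKM-1 were 56.4% and 57%, and 761 core genes (63.5%) were kept.

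Leaving out 1 library gave 2534 to 2911 genes higher and 2670 to 3148 lower over the lines, 391 to 853 core genes higher and 375 to 933 lower, 2229 to 6422 genes with a line difference and 264 to 979 core genes with one. The shares read in the other line ran from 70.4% to 88.3% (higher) and 73.9% to 85.8% (lower) in Kasumi-1, 48.4% to 76.4% and 44.4% to 72.9% in MV-4-11, 51.6% to 74.4% and 58.5% to 83.4% in NCI-H1299, and 80.1% to 93.6% and 70.3% to 92.7% in SKM-1. Under median scaling and quantile normalization 91.7% and 87.5% of core genes were kept. Restricting to the 9381 genes with 1 FPKM in both treatments of every line, chosen after seeing the data, left 968 core genes. Of 4869 values of the 164 named genes under 30 settings, 4790 kept direction and call, 52 lost and 27 gained a call, and 0 changed sign. The cause was not tested in any of these. Depth limits are unknown without counts.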
